A study of Mus musculus with 40 samples.

Results

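The transcript of Rbm20 was followed in left ventricles of 10-week-old wildtype and Rbm20 knockout mice of both sexes, to describe how much of it the knockout hearts still held and which exons it contained. Rbm20 (ENSMUSG00000043639.16, chromosome 19, 53665737 to 53855511, plus strand, GRCm39) was taken by its symbol, 1 gene of 25462 in the female gene table and of 24930 in the male table. All of its rows in the exon tables were used as well, 10 of 15053 exon bins in females and 4 of 23819 in males. An exon bin is a stretch of a gene shared by the same set of annotated exons, and 3 of the Rbm20 bins were listed in both tables.

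There were 4 groups of 5 mice: wildtype females, knockout females, wildtype males and knockout males. RNA was total RNA of the whole left ventricle, with 2 libraries per mouse, and 39 of 40 libraries were used because ko_f_154 had 1 library that could be matched by its label. The labels give the genotype as knockout and do not describe the allele, the targeting or the strain, and no treatment is named. Mice are named as in the labels.

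RBM20 is an RNA-binding protein of heart and skeletal muscle that keeps selected exons out of the transcripts of sarcomere and calcium-handling genes, titin above all. It binds pre-mRNA in the nucleus through an RNA recognition motif and needs an arginine- and serine-rich stretch for nuclear import. Its loss or mutation leads to dilated cardiomyopathy.

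The sequences that the results turn on are those of exons 4 and 5, shown because no read of them was counted in any knockout mouse. The exon tables number the bins without giving their positions, so the bins were placed on the GENCODE M21 gene model, which is on GRCm38. That placement is an inference: the model has 19 bins for Rbm20, 19 is the highest number listed, and the gene spans 189775 bases in the files and in the model. Among genes of equal span in both, all listed bins lay within the model's numbering for 94.0% of 6704 genes in the female table and 94.4% of 8144 in the male table. That check looks only at the highest number of each gene, so it cannot exclude a shift in numbering. The exon names given below rest on this placement. Bin 6 is then exon 4 of the 14-exon main transcript (chr19:53817146-53817237, 92 bases) and bin 7 is exon 5 (chr19:53817923-53818020, 98 bases), both plus strand and wholly coding. Capitals mark each exon, and lower case gives 30 bases of the exon that precedes or follows it in the spliced transcript.
exon 4: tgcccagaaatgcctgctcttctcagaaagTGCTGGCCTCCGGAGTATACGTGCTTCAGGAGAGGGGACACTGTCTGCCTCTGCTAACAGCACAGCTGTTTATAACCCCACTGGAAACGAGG
exon 5: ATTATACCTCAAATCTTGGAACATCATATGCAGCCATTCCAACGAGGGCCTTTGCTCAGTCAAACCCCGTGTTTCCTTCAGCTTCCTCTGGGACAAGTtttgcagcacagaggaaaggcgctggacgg

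Together the 2 exons hold 190 bases, which leaves a remainder of 1 when divided by 3. Written as a join of exon 3 to exon 6, the annotated sequence runs into the stop codon TAG, in capitals, that starts at base 32 of exon 6.
exon 3 joined to exon 6: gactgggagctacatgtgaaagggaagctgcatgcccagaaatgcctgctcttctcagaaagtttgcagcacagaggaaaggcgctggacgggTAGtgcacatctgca
In that join 457 codons precede the stop, of 1199 in the full reading frame, and the stop lies 1925 bases before the last exon junction. The files count reads per bin and not per junction, so whether exon 3 was joined to exon 6 in the knockout hearts was not tested.

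The knockout hearts kept 35.5% of the wildtype transcript level in females and 32.4% in males, over all reads of the gene. In females most of these reads lay in bins 18 and 19, at the end of the gene. Bin 18 had 2335 and 934 counts and bin 19 had 5313 and 1949, beside 11303 and 3922 gene reads in wildtype and knockout. Coding bins 4, 5, 9 and 10 kept 24.1%, 14.1%, 23.1% and 20.1% in females, and bin 1 kept 53.3%. The 35.5% thus cannot be read as the level of the coding exons. In males bins 18 and 19 were not listed, and bin 14 kept 37.1%. Levels are the authors' normalized counts, each library's read count over its size factor, and the value of a mouse is the mean of its libraries. Wildtype females had 1119, 1095, 1342, 1143 and 1001 normalized counts in wt_f_140, wt_f_141, wt_f_142, wt_f_143 and wt_f_144. Knockout females had 433, 354, 392, 289 and 555 in ko_f_95, ko_f_150, ko_f_151, ko_f_154 and ko_f_155. The highest knockout female, ko_f_155, stood well below the lowest wildtype female, wt_f_144, so the groups did not overlap. The group levels were 1140 ± 125.2 and 404 ± 99.3 (mean ± SD, n = 5 mice each), and the knockout mean was 35.5% of the wildtype mean, with single knockout mice between 25.4% and 48.7% (SD 8.71). The fitted log2 change was -1.52 ± 0.14 (SE; 95% interval -1.82 to -1.22; limma on log2(normalized count + 1), Benjamini-Hochberg adjusted p = 4.66e-05), and 10.8% of 12781 genes passed that test, 5.51% with a fall and 5.28% with a rise.

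Wildtype males had 845, 795, 894, 865 and 810 normalized counts in wt_m_112, wt_m_113, wt_m_124, wt_m_125 and wt_m_139. Knockout males had 266, 304, 308, 221 and 263 in ko_m_97, ko_m_106, ko_m_127, ko_m_128 and ko_m_130. Every knockout male lay below every wildtype male, and both male groups were tighter than the female ones. The group levels were 842 ± 40.3 and 272 ± 35.3 (SD, n = 5 each). The knockout mean was 32.4% of the wildtype mean, with single mice between 26.3% and 36.5% (SD 4.20). The fitted log2 change was -1.63 ± 0.09 (95% interval -1.82 to -1.45; limma adjusted p = 9.27e-08), and 15.9% of 12506 genes passed, 8.29% with a fall and 7.6% with a rise. Ordered by p, Rbm20 stood at place 20 among the genes tested in females and at place 1 in males.

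**Figure D1:**
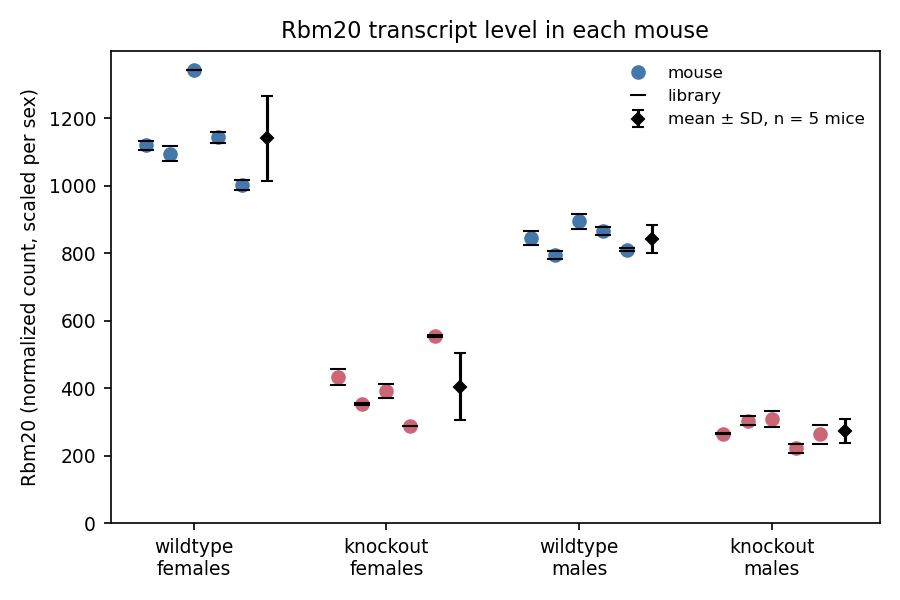
Rbm20 normalized count (vertical axis, scaled by the authors within each sex) in each mouse of the 4 groups; dots are mice, dashes their libraries, diamonds with bars the mean ± SD of 5 mice. Knockout females sit between 289 and 555 and knockout males between 221 and 308, below every wildtype mouse of their sex, the lowest of which are at 1001 and 795.

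The reads behind these values were few in some mice. Rbm20 had 1944 to 2574 reads per mouse in wildtype females, 203 to 1233 in knockout females, 1209 to 2172 in wildtype males and 477 to 773 in knockout males. The 203 reads were those of ko_f_154. As a share of all reads in genes, Rbm20 took 121 ± 12.9 and 45.4 ± 10.8 reads per 1000000 in wildtype and knockout females and 101.4 ± 10.7 and 33.2 ± 4.57 in wildtype and knockout males. The 2 libraries of a mouse gave similar levels: in 19 pairs the ratio of the first to the second ran from 0.808 to 1.12, and 14 pairs were within 10%. The lowest ratio was that of ko_m_130. The authors' deposited table gave log2 changes of -1.48 in females and -1.64 in males, with adjusted p-values of 4.31e-46 and 3.77e-155 in tables that hold each library as a column of its own.

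The loss in males and females differed by -0.11 ± 0.17 on the log2 scale (males minus females; 95% interval -0.47 to 0.25; limma interaction over 20 mice, adjusted p = 0.935). The interval allows the male ratio of knockout to wildtype to be between 0.72 and 1.19 times the female one. No gene passed that test (0% of 12651). At an unadjusted p under 0.05 there were 1031 genes by limma, edgeR called 0 and DESeq2 called 49. Wildtype males had lower normalized counts than wildtype females, but the tables were scaled separately for each sex and the levels were not compared.

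In bulk tissue, fewer cells of a type and less RNA per cell cannot be told apart. Beside the fall of Rbm20, the summed level of 12 cardiomyocyte markers, which include the troponins, Myh6 and Actn2, ran from 591979 to 697828 in wildtype and from 619272 to 724665 in knockout females. In males it ran from 513358 to 637690 and from 461590 to 608013. None of the 12 passed by limma in either sex. At an unadjusted p under 0.05 there were 4 in females and 2 in males, edgeR called 0 and 1, and DESeq2 called 2 and 2. The authors' deposited table called 6 in females and 3 in males. Per 1000 of that sum, Rbm20 had 1.73 ± 0.154 and 0.598 ± 0.133 in wildtype and knockout females, 34.6% left, and 1.48 ± 0.144 and 0.499 ± 0.102 in males, 33.6% left. These shares left were close to the 35.5% and 32.4% of the normalized counts. The sum is weighted to its most abundant members, such as Myh6, and does not measure cell number. Whether cardiomyocyte number differed was not tested.

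Markers of other cell types were followed as well, and not every list changed. Over all genes 5.28% rose and 5.51% fell in females, and 7.6% rose and 8.29% fell in males. In lists this short a single call says little, and the sums of several lists overlapped between genotypes. Of 8 fibroblast markers 4 rose in females and 5 in males, and their sum ran from 28753 to 34877 in wildtype and 36877 to 49670 in knockout females, and from 19897 to 32741 and 30378 to 39914 in males. Of 8 endothelial markers 2 fell in females and 1 in males, and their sums ran from 8156 to 9539 and 6759 to 7617 in females and from 6601 to 7516 and 5454 to 7198 in males. Of 7 tested mural markers 1 fell in each sex, with sums of 10578 to 12287 and 7861 to 10735 in females and 8103 to 9747 and 6985 to 8070 in males. The sums of 8 macrophage markers overlapped between genotypes, at 2581 to 4054 and 2386 to 3398 in females and 2342 to 3569 and 2088 to 2960 in males, and none passed by limma, with 0 at an unadjusted p under 0.05 and 0 by edgeR and DESeq2. The authors' deposited table called 0 of them in females and 1 in males. Atrial markers varied widely, from 408 to 5140 in wildtype and 2151 to 29819 in knockout females and from 418 to 3269 and 2729 to 8725 in males; 1 of 6 tested rose in females, and 1 rose and 2 fell in males. In the skeletal muscle list 2 genes were tested and 1 fell in each sex, with sums of 9653 to 10867 and 7495 to 8937 in females and 8078 to 11445 and 6405 to 7853 in males, while 6 of the 8 listed in females and 7 of the 9 in males had a mean under 10. The sums of that list thus rest on its 2 tested genes. Whether these came from a cell type other than cardiomyocytes was not tested. No marker of these lists was at 0 in every mouse of a sex. The part of these other cells in the fall of Rbm20 was not tested.

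The exons were not equally depleted. Exons 4 and 5 had no read in any knockout mouse, while exons before and after them kept reads. The exon tables list only bins with a p of 0.05 or less before adjustment in the authors' own DEXSeq test. That test compares a bin's share of its gene and was run on the same mice, so the bins seen here are a selection. Neither the level tests nor the share tests below are independent of that selection. The level tests were adjusted over the listed bins only. The listed bins held 78.3% to 86.2% as many counts as the gene had reads in single females, and 8.34% to 12.6% in males.

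In bin 6 (exon 4) the counts were 25, 31, 46, 35 and 29 in wt_f_140, wt_f_141, wt_f_142, wt_f_143 and wt_f_144 and 19, 14, 25, 18 and 9 in wt_m_112, wt_m_113, wt_m_124, wt_m_125 and wt_m_139. In bin 7 (exon 5) they were 16, 30, 26, 35 and 27 in the same females and 22, 14, 25, 20 and 8 in the same males. All 10 knockout mice had 0 in both bins, and no wildtype mouse was below 8. Over the groups this was 166 against 0 counts in females and 85 against 0 in males for bin 6, and 134 against 0 and 89 against 0 for bin 7, where the knockout mice had 3922 Rbm20 reads in females and 2970 in males. Set against a floor of 3 counts over the knockout group, bin 6 was at least 51.6-fold lower in females and at least 30.1-fold lower in males, which allows at most 1.94% and 3.33% of the wildtype level. Bin 7 was at least 41.6-fold and 31.5-fold lower, which allows at most 2.40% and 3.18%. These floors cover counting error only. By edgeR's quasi-likelihood test the adjusted p was 8.55e-09 and 3.16e-06 for bin 6, and 2.24e-08 and 3.63e-06 for bin 7, in females and males. In both sexes, 2 bins of all those listed had 0 counts in every knockout mouse and at least 5 in every wildtype mouse, and these were bins 6 and 7 of Rbm20.

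**Figure D2:**
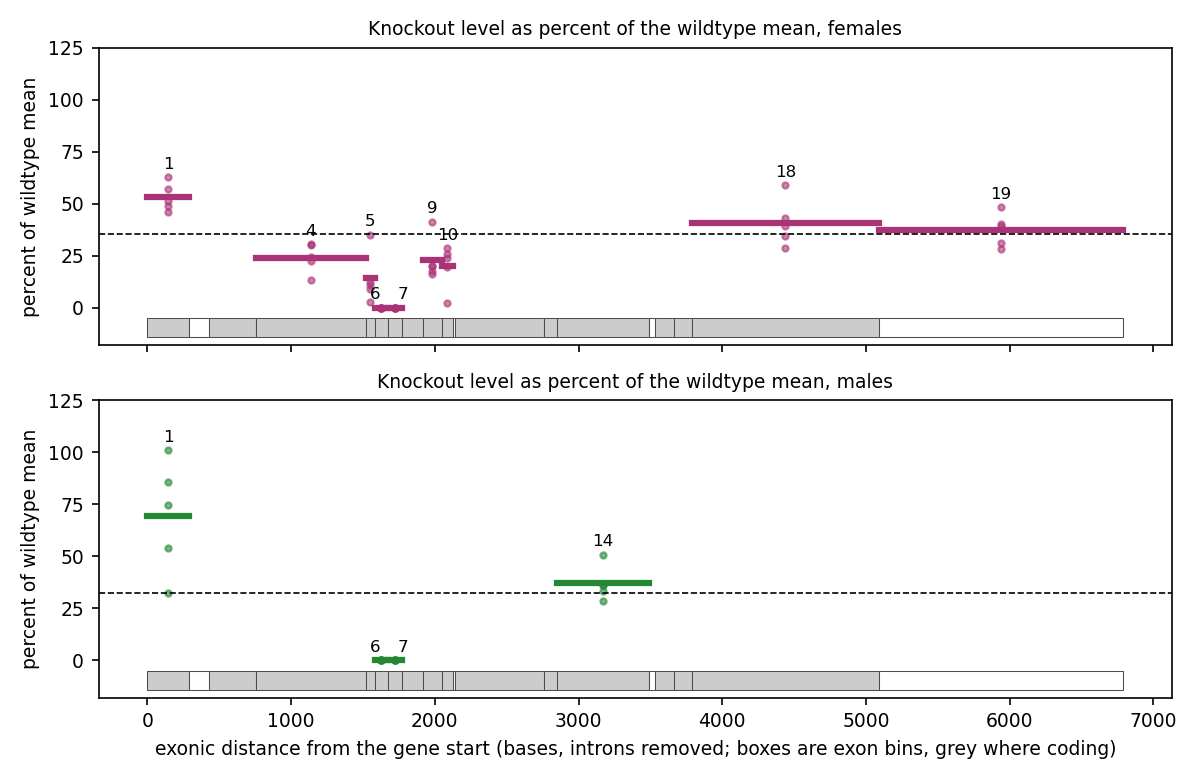
Level of each listed Rbm20 bin in knockout mice as a percent of the wildtype mean of the same sex (vertical axis), placed by exonic distance from the gene start in bases (horizontal axis); bars are means of 5 mice, dots single mice, the dashed line the whole gene (35.5% and 32.4%), numbers name the bins, and boxes are the 19 bins of the gene model. Bins 6 and 7 are at 0 in all 10 knockout mice; bin 15, with 4 and 5 counts, is left out.

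In the level of the bins, 9 of 10 listed Rbm20 bins fell in females and 3 of 4 in males (edgeR on bin counts scaled by the size factors of the gene table, adjusted p under 0.05), where 11.4% and 9.6% of all listed bins fell. The female background depends on the scaling: 1579 bins rose and 1711 fell as scaled here, against 1935 and 922 with scaling by total reads in genes, while the Rbm20 count was 9 in both. The same 9 and 3 bins had every knockout mouse below every wildtype mouse, which was so of 7.45% of all listed bins in females and 6.62% in males.

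Before the missing exons, bin 1 (exon 1, which holds the start of the reading frame) had 7.49, 8.87, 14.1, 8.68 and 7.35 normalized counts in the wildtype females and 4.57, 5.29, 4.76, 4.27 and 5.85 in the knockout females, in the order of mice above. Its level in females fell by 0.87 on the log2 scale (edgeR adjusted p = 0.0287), with 53.3% left, and rested on 92 and 47 counts. That call was lost with DESeq2 (adjusted p = 0.0694) and without wt_f_142 (0.0772), ko_f_95 (0.0552) or ko_f_151 (0.0523). In males the bin had 6.89, 5.26, 8.63, 9.09 and 5.40 in wildtype and 5.28, 2.28, 7.12, 6.06 and 3.81 in knockout mice, the groups overlapped, and the test was not passed (log2 change -0.52, adjusted p = 0.151, 69.6% left).

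Bin 4, the larger part of exon 2, had 51.3, 45.4, 83.9, 67.5 and 39.8 normalized counts in wildtype females and 17.3, 13.9, 7.79, 12.8 and 17.5 in knockout females. All knockout values were below the lowest wildtype value, with a log2 change of -2.04 (edgeR adjusted p = 3.03e-07) and 24.1% left. Bin 5 (exon 3, which directly precedes the missing exons) had 15.6, 11.5, 28.2, 14.5 and 11.2 in wildtype and 2.03, 1.44, 0.433, 5.70 and 1.80 in knockout females. It was the lowest of the bins that kept reads, with a log2 change of -3.15 (adjusted p = 2.87e-06) and 14.1% left, on 159 and 16 counts. Without ko_f_154, whose 5.70 was 4 counts of 1 library, 8.82% was left. How a read that crosses an exon junction was counted is not given in the sources used here.

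After the missing exons, bin 9 (exon 7) went from 26.05 ± 8.86 to 6.02 ± 2.70 normalized counts in females (log2 change -2.02, edgeR adjusted p = 9.11e-06, 23.1% left). Bin 10 (exon 8) went from 21.9 ± 4.99 to 4.40 ± 2.29 (-2.27, adjusted p = 6.15e-06, 20.1% left). Both bins lay below the 35.5% that the whole gene kept. Toward the end of the gene, bin 18 (exon 14, which ends the reading frame and begins the 3′ UTR) had 220, 205, 264, 266 and 218 in wildtype and 101, 80.8, 91.7, 67.0 and 138.5 in knockout females. Its log2 change was -1.26 (adjusted p = 5.55e-07), with 40.9% left. Bin 19, 1700 bases of 3′ sequence beyond the main transcript, held the most counts, 5313 and 1949, and went from 537 ± 38.03 to 201 ± 42.8 (-1.40, adjusted p = 1.08e-08, 37.5% left).

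In males the one other listed bin, bin 14 (exon 11), had 81.1, 67.8, 72.3, 75.6 and 52.9 normalized counts in wildtype and 25.3, 35.6, 25.5, 20.04 and 23.4 in knockout mice. The groups did not overlap, and its log2 change was -1.43 (edgeR adjusted p = 2.87e-06, 37.1% left). Bin 15 in females, 46 bases that belong to no exon of the main transcript, had 4 counts over the wildtype and 5 over the knockout mice and did not pass (adjusted p = 0.733).

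Per 1000 bases of bin, the wildtype level in females was 32.4 normalized counts in bin 1, 75.1 in bin 4, 261 in bin 5, 183 in bin 6, 137 in bin 7, 197 in bin 9, 274 in bin 10, 180 in bin 18 and 316 in bin 19. In knockout females the level per 1000 bases was 17.2 in bin 1, 18.1 in bin 4, 36.8 in bin 5, 45.6 in bin 9, 54.99 in bin 10, 73.6 in bin 18 and 118 in bin 19. In the wildtype the order of the bins did not follow their order along the gene, while in the knockout the mean was higher at each later of these bins with reads. Bin 15, with 5 counts over the knockout females and 10.2 normalized counts per 1000 bases, is left out of that order. Neighbours in that order often lay within 1 SD of each other, bins 1 and 4 in the knockout among them, and the order was not tested. The bins were listed for a difference in share between the genotypes in these same mice. The order thus describes a selection and cannot be read as a trait of the whole transcript.

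Shares of the transcript's own reads were tested to separate a bin's loss from the loss of the whole gene. A share is the bin's counts per 100 Rbm20 gene reads in the same mouse, compared by a two-sided exact permutation test over 5 against 5 mice, with adjustment over all 14 listed Rbm20 bins; the smallest unadjusted p it can give is 0.00794. It was passed by 5 bins in females and 2 in males. Bin 6 went from 1.46 ± 0.212 to 0 in females and from 0.963 ± 0.228 to 0 in males, and bin 7 from 1.18 ± 0.276 and 1.00 ± 0.264 to 0 (exact permutation, adjusted p = 0.0222 for each).

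The share of bin 1 rose in females, from 0.804 ± 0.146 to 1.26 ± 0.215 (exact permutation, adjusted p = 0.0222), with no overlap. In males it was 0.833 ± 0.175 in wildtype and 1.87 ± 0.793 in knockout mice, with overlap (exact permutation, adjusted p = 0.0556). The share of bin 18 rose in females from 20.6 ± 1.86 to 23.6 ± 0.827 and that of bin 10 fell from 1.91 ± 0.285 to 1.13 ± 0.585 (exact permutation, adjusted p = 0.0476 each). These 2 calls were lost when single mice were left out, in 5 and 7 of 10 cases. With shares taken over the listed bins alone, bin 1 (exact permutation, adjusted p = 0.0556) and bin 18 (0.0617) in females no longer passed. The shares of bin 4 (4.97 ± 1.04 and 3.51 ± 0.972; exact permutation, adjusted p = 0.0667), bin 9 (2.25 ± 0.552 and 1.46 ± 0.320; 0.0617) and bin 5 (1.38 ± 0.420 and 0.658 ± 0.747; 0.121) did not pass in females. The bin 5 result rests on ko_f_154, with a share of 1.97: the other 4 knockout females, at 0.110 to 0.475 (mean 0.329), lay below every wildtype female, the lowest at 1.05, and without ko_f_154 the test was passed (exact permutation, adjusted p = 0.0222). Without wt_f_144 bin 4 (exact permutation, adjusted p = 0.0494) and bin 9 (0.0476) passed in females, and without ko_m_106 bin 1 passed in males (0.0222). Nor did those of bin 19 in females (47.4 ± 4.64 and 50.2 ± 3.47; exact permutation, adjusted p = 0.325) and bin 14 in males (8.30 ± 1.13 and 9.59 ± 1.28; 0.139).

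**Figure D3:**
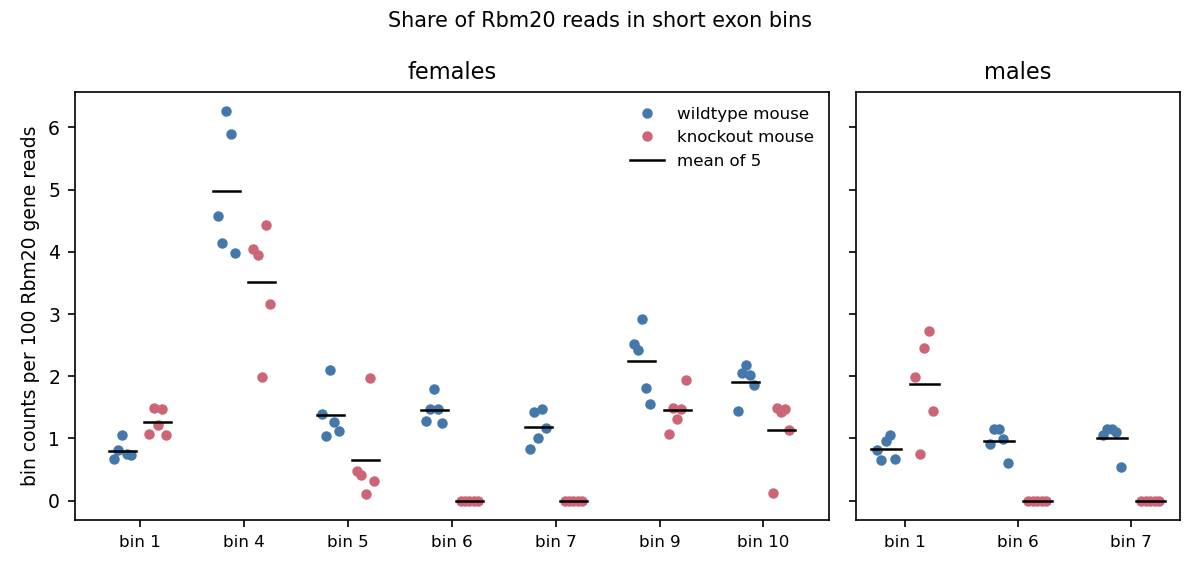
Counts of the short Rbm20 bins per 100 Rbm20 gene reads (vertical axis) in each wildtype and knockout mouse, females left and males right; dots are mice and lines the means of 5. Bins 6 and 7 fall to 0 in every knockout mouse, the share of bin 1 is higher in knockout than in wildtype females (1.26 against 0.804), and the other bins shown overlap between genotypes.

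The authors' deposited table gave adjusted p-values for bin usage of 9.01e-20 and 2.07e-08 for bin 6 and 2.87e-14 and 7.06e-09 for bin 7, in females and males. In the authors' deposited table bin 5 (2.14e-04) and bin 18 (0.0466) in females and bin 1 in males (0.0135) also had an adjusted p under 0.05.

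Genes that lie beside Rbm20 on chromosome 19 were described in the same way. Within 1 Mb there were 21 listed genes in each sex and 9 with a mean normalized count of at least 10, and of these 2 passed in females and 1 in males, against 10.8% and 15.9% of all genes. Dusp5, a phosphatase of ERK kinases whose gene lies 134875 bases before Rbm20, went from 43.1 ± 5.76 to 27.3 ± 3.28 normalized counts in females without overlap (log2 change -0.64 ± 0.13, limma adjusted p = 0.00691), a call lost with the first library of each mouse alone (adjusted p = 0.138). In males it had 27.99 ± 7.36 and 21.8 ± 5.197 (-0.34 ± 0.21, adjusted p = 0.298). Pdcd4, an inhibitor of translation 25151 bases after Rbm20, rose in females from 127.4 ± 26.7 to 168 ± 15.7 (0.42 ± 0.12, limma adjusted p = 0.0487), a call lost in 8 of 10 cases when single mice were left out.

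Xpnpep1, an aminopeptidase, rose in males from 281 ± 16.1 to 343 ± 43.4 (0.28 ± 0.09, limma adjusted p = 0.0403), a call lost in 7 of 10 cases when single mice were left out. The other 7 tested neighbours in females lay between -0.14 and 0.10 on the log2 scale and the other 8 in males between -0.34 and 0.20. They were, in both sexes, the adducin Add3, the MYC antagonist Mxi1, the splicing factor Smndc1, the cohesin subunit Smc3, the BBSome subunit Bbip1 and the scaffold Shoc2, with Xpnpep1 in females and Dusp5 and Pdcd4 in males. The predicted gene Gm16299, which overlaps Rbm20 on the minus strand, had 8.02 ± 1.81 and 8.80 ± 0.183 in wildtype and knockout females and 6.05 ± 1.24 and 8.55 ± 2.99 in males and was too low to be tested. By the gene model it lies between exons 5 and 6 of Rbm20 and overlaps none of its exon bins. Whether reads were counted by strand is not given in the sources used here. Without strand, its reads could be mistaken for those of Rbm20 only if reads in introns were counted.

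**Figure D4:**
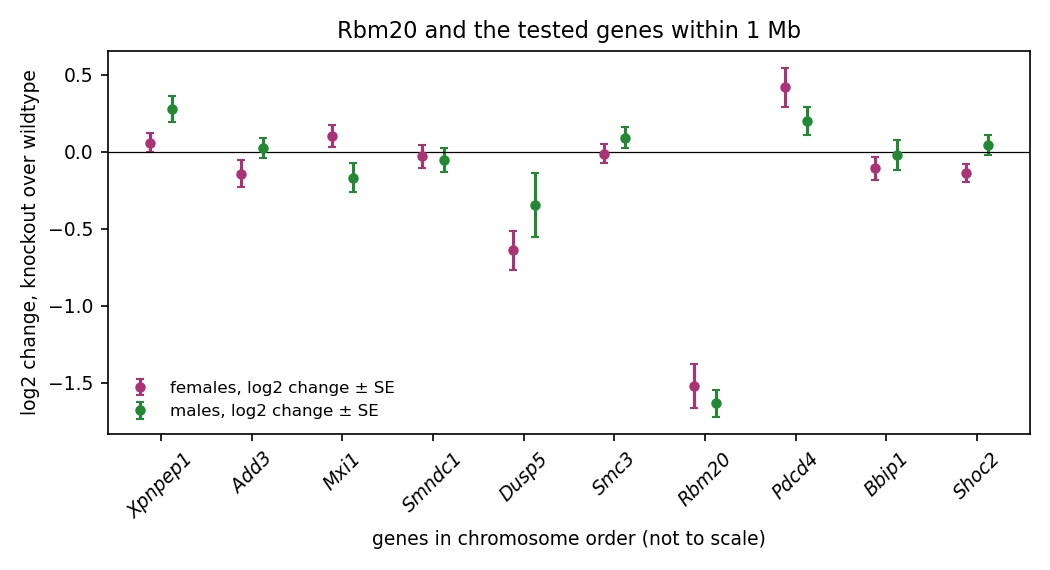
Log2 change, knockout over wildtype, with its SE (vertical axis) for Rbm20 and the 9 tested genes within 1 Mb in chromosome order (horizontal axis), in females and males. Rbm20 lies at -1.52 and -1.63, and the next lowest point is Dusp5 in females at -0.64.

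Genes of the machinery around RBM20 were followed too, where 10.8% of all genes were called in females and 15.9% in males. Its paralogs are Matr3 and Zfp638, nuclear matrix and zinc finger proteins that share part of its domain plan. Zfp638 rose in males from 284 ± 27.4 to 358 ± 19.8 normalized counts (log2 change 0.34 ± 0.08, limma adjusted p = 0.00861), and in females its change of 0.28 ± 0.08 did not pass (adjusted p = 0.0554). Matr3 had changes of 0.14 ± 0.08 and 0.16 ± 0.06 in females and males and did not pass. Of 7 genes for nuclear import and phosphorylation of arginine- and serine-rich proteins, 1 rose and 1 fell in females and 2 rose and 1 fell in males, beside 10.8% and 15.9% of all genes. The median log2 change of the 7 was 0.08 and 0.13, against 0.00 over all genes in both sexes.

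Clk4, a kinase of splicing factors, rose by 0.44 ± 0.12 in females and 0.29 ± 0.09 in males on the log2 scale (limma adjusted p = 0.0355 and 0.0313). Akt2, a kinase of insulin signalling, fell by 0.34 on the log2 scale in females (adjusted p = 0.00223) and by 0.21 in males (adjusted p = 0.0467). Tnpo3, the import receptor of such proteins, rose in males by 0.23 ± 0.07 (limma adjusted p = 0.0421) and in females had a change of -0.01 ± 0.08. The calls of Clk4 were lost in 5 of 10 cases in females and 7 of 10 in males when single mice were left out, that of Akt2 in males in 9 and that of Tnpo3 in 6.

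Of 15 tested splicing partners 1 rose and 2 fell in females and 1 rose and 1 fell in males, with medians of 0.00 and 0.05. The male count is near the 15.9% of all genes called, and in females 10.8% were called. Rbfox1, which regulates splicing in muscle and neurons, went from 472 ± 102.4 to 204 ± 22.7 normalized counts in females and from 346 ± 36.1 to 152 ± 21.6 in males (log2 changes -1.18 ± 0.14 and -1.19 ± 0.10; limma adjusted p = 2.85e-04 and 4.40e-06). Its groups did not overlap in either sex. Celf2 rose by 0.41 ± 0.08 and 0.51 ± 0.08 (limma adjusted p = 0.00647 and 5.38e-04), and Celf1, its relative, fell by 0.28 on the log2 scale in females (adjusted p = 0.00572) with a change of -0.25 ± 0.09 in males (adjusted p = 0.0626).

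Of 20 genes known as splicing targets, here counted over all their exons, 3 rose and 2 fell in females and 3 rose and 1 fell in males, with medians of 0.04 and 0.01, where 10.8% and 15.9% of all genes were called; the male count is close to that share. Rtn4 (0.65 ± 0.07 and 0.84 ± 0.12), a protein that shapes the endoplasmic reticulum, and Enah (0.68 ± 0.12 and 1.03 ± 0.16), a regulator of actin filaments, rose in both sexes, and the adaptor Sh3kbp1 fell in both (-0.35 ± 0.08 and -0.41 ± 0.08), each with a limma adjusted p of 0.0155 or less. Pdlim3, of the Z-disc, rose in females (0.80 ± 0.22; limma adjusted p = 0.0326), where Lmo7 fell (-0.32 ± 0.09; adjusted p = 0.0429), each call lost in 7 of 10 cases when single mice were left out. Camk2d, the calcium-dependent kinase of the heart, rose in males (0.31 ± 0.08; limma adjusted p = 0.0182). Ryr2, the calcium release channel, is in this list and in the cardiomyocyte list. Titin (Ttn) had changes of 0.34 ± 0.18 and 0.36 ± 0.15 in females and males and did not pass (limma adjusted p = 0.261 and 0.110).

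Of 19 genes of nonsense-mediated decay, the pathway that removes transcripts with an early stop codon, none passed by limma in either sex. At an unadjusted p under 0.05 there were 2 in females and 0 in males, and edgeR and DESeq2 called 0 in both. The authors' deposited table called 1 in females and 0 in males. The median log2 change of the list was 0.03 in both sexes, against 0.00 over all genes.

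The genes whose levels ran most like that of Rbm20 over the 20 mice, after centring each sex, were taken from 9155 genes with a mean of at least 50. They were Cep128, a protein of the centriole (Pearson r = 0.956), the membrane protein Ano10 (0.948), Rbfox1 (0.942), Mfn1, which fuses mitochondria (0.940), and Cluh, which binds messages of mitochondrial proteins (0.940). The fitted log2 changes of Cep128 were -1.58 ± 0.12 and -1.67 ± 0.10, close in size to those of Rbm20, and those of Ano10 were -1.37 ± 0.13 and -1.45 ± 0.10. Mfn1 (-0.31 ± 0.06 and -0.28 ± 0.06) and Cluh (-0.40 ± 0.08 and -0.49 ± 0.07) changed far less. Among the most opposite to Rbm20 were the GTPase Rras2 (r = -0.939; log2 changes 0.40 ± 0.07 and 0.56 ± 0.06), the antigen-presenting Mr1 (-0.939; 1.09 ± 0.10 and 1.05 ± 0.11), the ATP-gated channel P2rx5 (-0.933) and Taf9b (-0.933).

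These coefficients span both genotypes and rest mostly on the difference between them. After the mean of each group was removed, r with Rbm20 over the same 20 mice was 0.11 for Cep128, 0.15 for Ano10, 0.32 for Rbfox1, 0.44 for Mfn1 and 0.57 for Cluh, and between -0.11 and -0.45 for the 4 opposite genes named. They are given as descriptions of likeness, with no test.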

How the data were processed

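Total RNA of left ventricle was sequenced on a BGISEQ-500, per the labels' protocols, and aligned with STAR 2.7.10a to GRCm39, per the submitters' processing notes. The read counter, annotation release and strand setting are not given in the sources used here. The deposited gene tables hold, per library, a signal that is the authors' read count divided by a size factor. In every library used 100% of values were whole multiples of 1 step (tolerance 1e-06 of a read), so reads were recovered. The exon tables were deposited as raw read counts of each bin. The authors' log2 fold changes and p-values were copied as deposited. 1 gene-table column matched no label and was not used. Depth was 2351987 to 16973229 reads in genes per library (median 9043245).

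Libraries were averaged per mouse (bin counts summed); each mouse number was taken as 1 animal. Genes with a mean of at least 10 were fitted per sex with limma 3.58.1 on log2(value + 1), since the values are normalized. A fold on that scale understates changes of low genes. Bins were fitted with edgeR 4.0.16 over each whole exon table, with size factors from the gene table. DESeq2 1.42.0 was an alternative. The fits were tested on simulated data. Adjustment was by Benjamini-Hochberg over all features, and the threshold was 0.05.

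Members and lists were chosen with earlier results of these data known. Named genes were Rbm20, its listed bins, tested genes within 1 Mb, list members past the threshold in either sex, and the 5 genes with the highest and the 5 with the lowest correlation; Ttn, Ryr2, Matr3 and Gm16299 were named after their values were seen. A gene that this rule would name is not reported here. Alternatives changed the pseudocount, filter, tool, scaling, library or mice.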

Additional observations from a re-analysis of the deposited data

Results flagged for a closer look

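In 8 of 60 sets of 5 mice a single mouse stood apart, its gap to the nearest other mouse being over 0.71 of the whole range; chance alone flags about 1 in 20 sets, and levels and shares of a bin are not independent. The mouse wt_f_142 was high in bin 5 (28.2 normalized counts, the other 4 wildtype females 11.2 to 15.6) and in bin 1 (14.1, the others 7.35 to 8.87). It also had the highest Rbm20 level of the wildtype females, and without it the call of bin 1 was lost.

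The mouse ko_f_154, with 1 library and 203 Rbm20 reads, had a share of 1.97 per 100 gene reads in bin 5 (others 0.110 to 0.475), which was 4 counts. In bin 10 ko_f_95 had a share of 0.119 (others 1.14 to 1.497), which was 1 count. In bin 9 ko_f_155 had 10.8 normalized counts (others 4.27 to 5.29), and it had the highest Rbm20 level of the knockout females.

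In bin 7 wt_m_139 was low, with 4.32 normalized counts (others 8.92 to 10.3) and a share of 0.534 (others 1.06 to 1.16). In bin 14 ko_m_106 had a share of 11.8 (others 8.80 to 9.54). The causes were not tested.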

How the results depend on the processing

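The fall of Rbm20 kept its direction and its call in both sexes under every alternative run, and the shares left moved by less than 1 SD. Leaving out single mice gave log2 changes of -1.64 to -1.41 in females and -1.68 to -1.56 in males, and shares left of 32.2% to 37.998% and 31.3% to 33.9%. The difference between the sexes ranged from -0.22 to 0.0096, and the sign turned only without ko_f_155; it was not past the threshold under any setting. The count of fallen bins was 8 to 9 in females and 3 in males without single mice. In males it was 1 when bins needed a mean of 10 counts, by construction, since fewer bins were tested. The count of bin shares past the threshold was 3 to 6 in females and 2 to 3 in males without single mice, and 3 in females over the listed bins alone. The alternatives below were chosen after seeing the data. Called neighbours in females numbered 1 with a mean of at least 50, 1 by edgeR, 0 and 1 with the first and the second library alone, 4 in the authors' deposited table, and 1 to 2 without single mice. In males they numbered 0 without a filter, 0 with the first library and 0 to 1 without single mice. List genes called in females numbered 10, against 6 with the second library, 21 in the authors' deposited table and 7 to 13 without single mice. In males there were 10, against 17 by DESeq2, 24 in the authors' deposited table and 7 to 12 without single mice. The causes of these shifts were not tested. No paired analysis was possible because the groups share no mouse numbers. Beside bins 6 and 7, at 0, counts under 10 in 1 or more knockout mice limit bins 1, 4, 5, 9, 10 and 15 in females and bin 1 in males.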
